A study of Mus musculus with 28 samples.

Results

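The transcripts of 10 genes of the NRF2 antioxidant pathway were followed in murine bone marrow-derived macrophages (BMDMs) exposed to von Willebrand factor (VWF) or to bacterial lipopolysaccharide (LPS). The genes were listed by name and not by a cutoff on their levels, though earlier results of these data were known. All 10 were present among the 54532 genes of the count table. They are Nfe2l2 and Keap1, the genes of NRF2 and of its repressor; Gclc, Gclm and Slc7a11, of glutathione synthesis; Txnrd1, Srxn1 and Prdx1, of the thioredoxin and peroxiredoxin system; Nqo1, of quinone reduction; and Hmox1, of heme breakdown. RNA was sequenced from 28 BMDM cultures. The cultures were kept for 3.5 h or 16 h with 10 µg/ml plasma-derived VWF (5 cultures per time), with 100 ng/ml LPS (4 per time) or with the PBS control (5 per time). All groups shared a medium with 1 mM CaCl2 after culture in M-CSF, the growth factor that drives macrophage differentiation. The marrow came, per the cell culture section of the study's methods, from C57/B6JB mice aged 8 to 12 weeks. The same methods give a younger age range for the murine experiments in general. The labels call the cultures biological replicates but do not say which came from separate animals, so p values measure the spread between these cultures.

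NRF2 is a transcription factor that is made continuously and, in unstressed cells, held by KEAP1 and passed to the proteasome. Oxidants and electrophiles modify cysteines of KEAP1, NRF2 then escapes degradation, enters the nucleus with a small MAF partner and binds antioxidant response elements near genes of glutathione, thioredoxin and heme metabolism. In macrophages the pathway is known for limiting oxidative damage and for restraining inflammatory cytokine genes. Because NRF2 is controlled mainly as a protein, the level of its transcript is a separate quantity from its activity, which was not measured here.

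The core letters of the antioxidant response element, TGACNNNGC, were searched on both strands of RefSeq promoter windows (GRCm38.p6), which run from 250 bases before to 50 bases after a gene's start. Windows were held for 8 of the 10 genes (10 windows, with none for Gclc and Hmox1). Of these 10 windows 5, each of a different gene, had a match, against 12.4% of all 32851 windows of this length. The 5 stretches are printed because they show how the matched cores differ; each reads 5′ to 3′ on the strand that carries the core, and capitals mark the core. The Nfe2l2 stretch is chr2:75704875-75704913 on the minus strand, the Gclm stretch chr3:122245403-122245451, the Prdx1 stretch chr4:116685446-116685494, the Srxn1 stretch chr2:152105542-152105570 and the Txnrd1 stretch chr10:82859094-82859142, the last 4 also read from the minus strand.
Nfe2l2: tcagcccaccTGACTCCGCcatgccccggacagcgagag
Gclm: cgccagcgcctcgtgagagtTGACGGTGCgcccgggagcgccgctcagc
Prdx1: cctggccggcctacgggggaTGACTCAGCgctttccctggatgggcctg
Srxn1: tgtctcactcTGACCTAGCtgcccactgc
Txnrd1: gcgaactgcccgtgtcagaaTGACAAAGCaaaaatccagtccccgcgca
Counted from 0 at the gene's start and along the gene's direction, the most upstream base of the core lay at position −240 for Nfe2l2, −134 for Gclm, −133 for Prdx1, 28 for Srxn1 and −92 for the second of 3 Txnrd1 windows. The Prdx1 core, TGACTCAGC, also contains an AP-1 site (TGACTCA), and 0.454% of all windows held these 9 letters. The pattern did not cover TGAG in place of TGAC, as in the letters TGAGTCAGC of the Srxn1 window, and sites outside the windows were not searched. A match of letters was not tested as a binding site.

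Slc7a11, the gene with the largest change of the 10 after VWF, had no match to these letters in its window. Its window held TGATGCAA from position −66 and, on the other strand, from −47, in capitals in the stretch printed here (chr3:50443633-50443699, minus strand). These letters belong to the amino acid response element that the stress factor ATF4 binds, and they were searched after the window had been read. They were in 0.895% of all windows, overlap no TGACNNNGC match and were in no other window of the 10 genes.
Slc7a11: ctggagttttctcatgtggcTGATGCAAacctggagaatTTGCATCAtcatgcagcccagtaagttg

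Total counts per culture ranged from 41131209 to 77699206. All 8 macrophage markers examined, among them Adgre1, Csf1r and Lyz2, reached at least 1 TPM (transcripts scaled by exon length and summing to the same total in every culture) in every culture, and 12 of 20 markers of other cells stayed under 1 TPM in every culture. The summed other-cell markers lay between 9.11 and 142 TPM over all cultures, with group medians from 26.3 to 50.3 TPM. Their part in the results was not tested. The collagen genes Col1a1 and Col1a2 were the largest terms, with group medians of 13.5 to 26.3 TPM and 9.12 to 20.6 TPM. Camp, a neutrophil granule gene, was singled out after its values were seen. At 3.5 h it was at 0 to 1.08 TPM in controls, 3.55 to 6.27 TPM with VWF and 0.697 to 2.82 TPM with LPS. At 16 h it was at 0.0544 to 1.95, 6.44 to 10.4 and 1.80 to 2.86 TPM. Of the other neutrophil genes examined, Ly6g reached at most 0.118 TPM, Mpo 0.667 TPM, Elane 1.13 TPM and Ltf 2.36 TPM. Library measures differed between groups as well. The median of the summed macrophage markers was 26960 TPM in controls, 23000 TPM with VWF and 17610 TPM with LPS at 3.5 h, and 33250, 43950 and 16870 TPM at 16 h. Lyz2 was the largest term of this sum, with medians of 27200, 37200 and 6540 TPM at 16 h. The markers did not move as a set. With LPS at 16 h the medians of Fcgr1 (1970 against 125 TPM in controls), Cd14 (4250 against 2230 TPM) and Adgre1 (1120 against 827 TPM) were higher. Those of Lyz2, Cd68, Csf1r, Itgam and Mertk were lower. Ribosomal protein genes held a median of 5.79% of counts in controls, 5.69% with VWF and 2.91% with LPS at 16 h, and mitochondrial genes 0.807%, 0.616% and 0.375%, and the part of these measures in the results was not tested. Some cultures stood apart at 16 h. In Control 16 h replicate 5 ribosomal protein genes held 9.55% of counts, against 5.03% to 5.80% in the other controls of that time, and the summed macrophage markers were 7670 TPM against at least 30910 TPM. LPS 16 h replicate 4 had 4.56% ribosomal protein counts against at most 3.15% in the other LPS-treated cultures, and 9179 TPM of macrophage markers against at least 16140 TPM. VWF 16 h replicate 4 had 7.135% ribosomal protein counts against 4.62% to 5.76% in the other VWF-treated cultures of that time. Its macrophage markers were 28540 TPM against at least 43660 TPM. At 3.5 h, LPS replicate 1 had 10570 TPM of these markers against at least 17520 TPM in the other LPS-treated cultures. Where a gene crossed a threshold without Control 16 h replicate 5 or LPS 16 h replicate 4, both values are given.

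Levels are given as CPM, that is counts scaled to a common library size and by TMM factors, which set the bulk of genes equal between cultures, and per length as TPM. A gene was called when its adjusted p was under 0.05 and it differed by at least 2-fold in edgeR's quasi-likelihood test with Benjamini-Hochberg adjustment, to which every adjusted p below belongs. Scaling by total counts instead moved the median log2 fold change of all genes to −0.22 for VWF and −0.55 for LPS at 3.5 h, to −0.09 and −0.59 at 16 h, and to 0.32 and 0.46 for VWF against LPS at 3.5 h and 16 h. The changes below are therefore changes relative to the bulk of genes. In bulk cultures, fewer cells of a type and less RNA per cell cannot be told apart.

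In control BMDMs at 3.5 h the peroxide-reducing enzyme gene Prdx1 was the most abundant of the 10 per length, at 3295 ± 314 TPM (SD, n = 5), followed by Hmox1 at 2465 ± 229 TPM. Srxn1 (369.7 TPM), Nfe2l2 (204 to 343 TPM) and Txnrd1 (199.6 TPM) came next, and neighbours in this order overlapped between cultures. Gclm (131 TPM) and Gclc (109 TPM) also overlapped. Keap1 (25.9 TPM), Nqo1 (8.02 TPM) and Slc7a11 (2.86 TPM) were lowest and did not overlap their neighbours. The order shifted with treatment: Slc7a11 was seventh after VWF at 3.5 h, at 59.5 TPM, where it overlapped Gclm above it and Gclc below it, and in LPS-treated cultures at 16 h Hmox1 (8742 TPM) and Prdx1 (8750 TPM) overlapped.

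**Figure D1:**
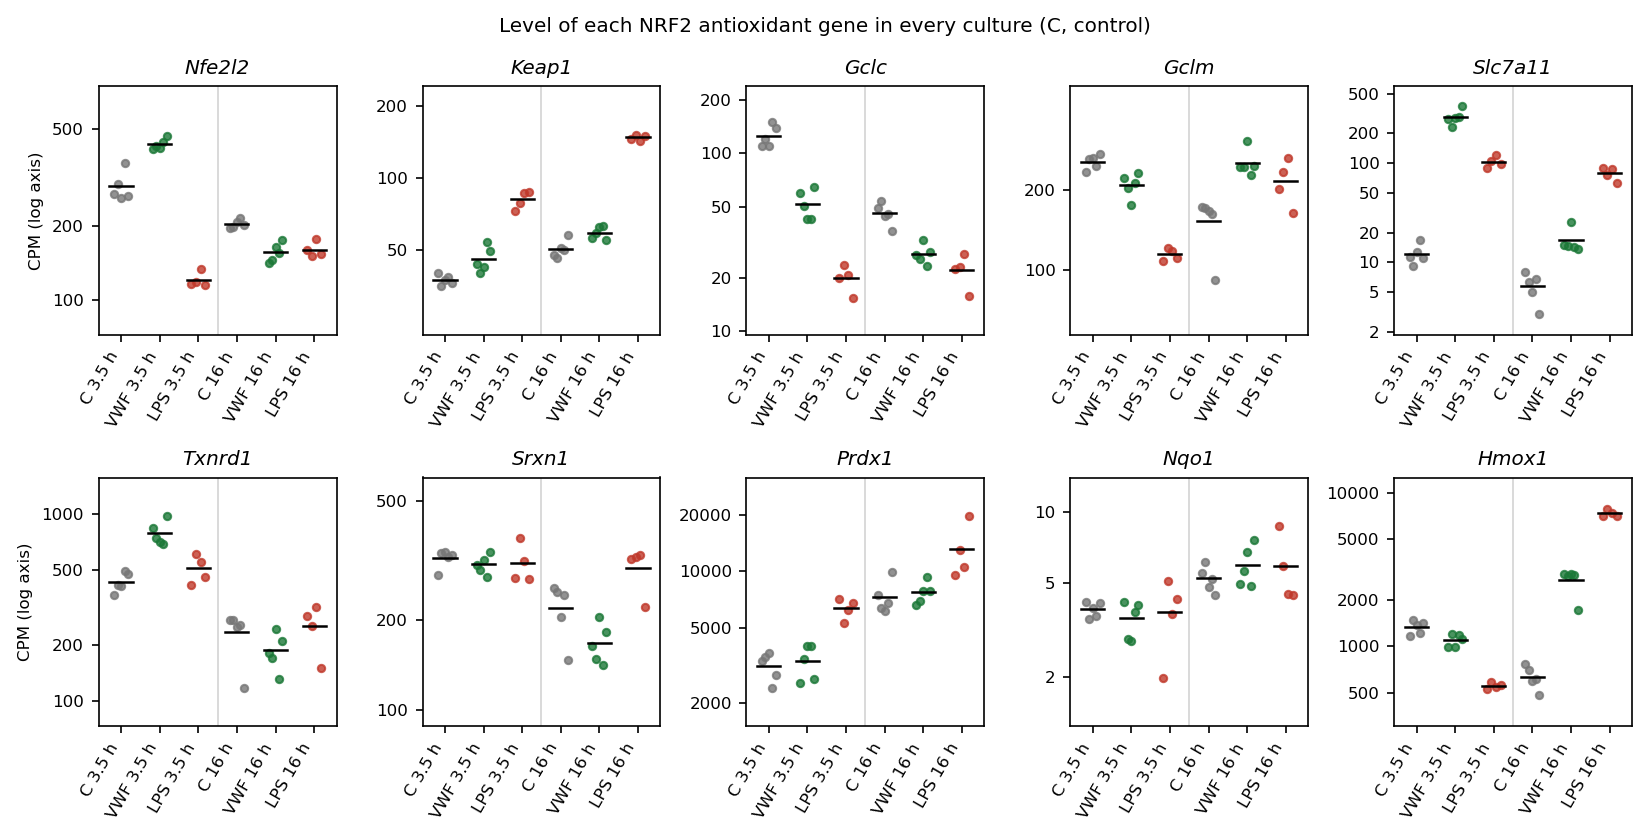
Level of each of the 10 genes in every culture, in CPM on a log axis, by group; points are cultures, and horizontal lines are group means (n = 5 for control and VWF, n = 4 for LPS). Slc7a11 was lowest in controls and highest after VWF at 3.5 h, and Hmox1 was highest after LPS at 16 h.

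The first question was how the genes responded to VWF at 3.5 h. Of the 10 genes, 9 passed the expression filter of 10 TPM in at least 1 culture, and 2 were called, Slc7a11 higher and Gclc lower, against 14.7% of all 8200 genes tested (9.1% higher and 5.59% lower). Both act in glutathione synthesis, and they moved in opposite directions. At the adjusted p alone, 4 rose and 3 fell, against 43.6% of genes tested in either direction. The median log2 fold change of the 9 genes was 0.10, beside −0.01 over all genes. The comparisons of VWF and of LPS with control at 1 time share their control cultures, so their values are given side by side.

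Slc7a11 encodes the cystine importer xCT, which supplies cysteine for glutathione. Its level in the 5 control cultures at 3.5 h was 11.2, 9.15, 12.8, 16.7 and 11.1 CPM, and after VWF it was 277, 233, 284, 294 and 376 CPM. Every VWF-treated culture was far above every control. The log2 fold change was 4.60 (SE 0.19), a 24.3-fold rise (adjusted p = 7.36e-09).

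Gclc encodes the catalytic subunit of glutamate-cysteine ligase, the rate-limiting enzyme of glutathione synthesis. The control cultures held 111, 119.8, 110.1, 149 and 139 CPM and the VWF-treated cultures 59.7, 50.4, 42.8, 43.0 and 64.8 CPM. The groups did not overlap, and the log2 fold change was −1.25 (SE 0.14, adjusted p = 2.26e-05). Gclm, the modifier subunit of the same enzyme, changed less, from 233 to 271 CPM in controls to 175 to 231 CPM, with a log2 fold change of −0.27 (SE 0.09, adjusted p = 0.025; up to 0.0638 with a culture left out and 0.172 without the filter).

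Nfe2l2 itself was at 272, 297, 259.9, 362 and 267 CPM in controls and at 416, 426, 418, 441 and 469 CPM after VWF. Each VWF-treated culture exceeded the highest control, Control 3.5 h replicate 4. The rise was 1.51-fold (log2 fold change 0.59, SE 0.09, adjusted p = 0.000309), under the fold threshold. Keap1 rose by less, with a log2 fold change of 0.31 (SE 0.09, adjusted p = 0.0158) and overlapping groups, and did not pass under scaling by total counts (0.09, adjusted p = 0.437). A share of 10.9% of its exon length overlaps the gene Gm16754, and whether counting used strand is not given in the sources used here.

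Txnrd1 encodes cytosolic thioredoxin reductase, which keeps thioredoxin reduced. The control cultures held 368, 419.9, 412, 496 and 478 CPM and the VWF-treated cultures 838, 748, 707, 694 and 979 CPM. No values overlapped, and the rise was 1.85-fold (log2 fold change 0.89, SE 0.12, adjusted p = 8.75e-05). Srxn1, which repairs overoxidized peroxiredoxins, and Prdx1, one of its substrates, did not pass the test: their log2 fold changes were −0.05 (95% interval −0.22 to 0.12) and 0.10 (−0.26 to 0.46). Scaled by total counts they were −0.26 (adjusted p = 0.0187) and −0.12. Hmox1, the inducible heme oxygenase, was at 1338 ± 132 CPM in controls and 1101 ± 102 CPM after VWF, a log2 fold change of −0.26 (SE 0.10, adjusted p = 0.0454; up to 0.129 with a culture left out and 0.254 without the filter), with overlapping groups.

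LPS at the same time was compared with the same controls. Of 9 genes tested, 3 were called higher (Slc7a11, Keap1 and Prdx1) and 4 lower (Gclc, Nfe2l2, Hmox1 and Gclm), against 24.5% of all 8190 genes tested (12.8% higher and 11.8% lower). The same 7 genes passed at the adjusted p alone, which 65.7% of genes did. Under scaling by total counts the split was 1 higher and 4 lower, since Keap1 (log2 fold change 0.60) and Prdx1 (0.51) then fell short of 2-fold.

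Gclc had the largest decrease. The LPS-treated cultures held 19.9, 23.4, 20.7 and 15.3 CPM, each below the lowest control by a wide margin, and the log2 fold change was −2.64 (SE 0.14, adjusted p = 3.43e-08). Gclm fell with it, to 109, 121, 118 and 111 CPM against 233 to 271 CPM in controls. The groups were apart, with a log2 fold change of −1.13 (SE 0.08, adjusted p = 2.29e-07). A share of 2.44% of the 100-base windows of Gclm occurs in other genes, among them Ppia and its copies. How large a part of the Gclm reads this concerns was not tested. Slc7a11 rose against these decreases, to 90.5, 104.6, 122 and 97.3 CPM, all above the controls (log2 fold change 3.11, SE 0.16, adjusted p = 2.51e-08).

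Nfe2l2 fell after LPS to 116, 118, 133 and 115 CPM. These values were less than the lowest control of 259.9 CPM, and the log2 fold change was −1.25 (SE 0.11, adjusted p = 1.38e-06). Keap1 rose in the same cultures to 73.2, 79.0, 86.6 and 87.3 CPM from 35.5 to 40.1 CPM in controls (log2 fold change 1.14, SE 0.08, adjusted p = 3.31e-07). Hmox1 fell to 531, 588, 542 and 558 CPM, each under the lowest control of 1178 CPM (log2 fold change −1.25, SE 0.10, adjusted p = 7.82e-07).

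Prdx1 was at 3308, 3486, 3653, 2401 and 2810 CPM in controls and at 7151, 5314, 6227 and 6737 CPM after LPS. The groups did not overlap, and the log2 fold change of 1.04 (SE 0.15, adjusted p = 9.77e-05) was close to the fold threshold, which it missed without Control 3.5 h replicate 4 or LPS 3.5 h replicate 1 (lowest value 0.97). Txnrd1, which rose with VWF, was at 513 ± 87.4 CPM (SD, n = 4) after LPS with a log2 fold change of 0.26 (95% interval −0.02 to 0.54, adjusted p = 0.0919; 0.35, adjusted p = 0.031, without LPS 3.5 h replicate 1). This value was −0.28 under scaling by total counts. Srxn1 had a log2 fold change of −0.03 (−0.27 to 0.21), and of −0.57 under that scaling (adjusted p = 0.000628).

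VWF-treated and LPS-treated cultures were then compared directly. At 3.5 h, 4 of 9 genes tested were called higher with VWF and none lower (2 lower at an unadjusted p of 0.05 in edgeR, none by DESeq2), against 4.71% of 7500 genes called higher and 6.71% called lower (11.4% in all). Without the fold threshold, 6 were higher and 2 lower, against 50.2% of genes in either direction. Gclm passed as well under scaling by total counts, so that 5 were higher.

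Nfe2l2 showed the largest of these differences, 3.66-fold, with VWF-treated cultures at 416 to 469 CPM and LPS-treated cultures at 115 to 133 CPM (log2 fold change 1.87, SE 0.08, adjusted p = 1.1e-07). Slc7a11 was 2.87-fold higher with VWF (log2 fold change 1.52, SE 0.14) and Gclc 2.67-fold higher (1.42, SE 0.17). Hmox1 stood at the fold threshold (1.01, SE 0.09) and missed it in DESeq2 (0.99), with its size factors, with both other filters and when any of 5 of the 9 cultures was left out (lowest value 0.97). In the other direction, Prdx1 and Keap1 had lower levels with VWF: the log2 fold changes were −0.91 (SE 0.16, adjusted p = 0.000972) and −0.80 (SE 0.10, adjusted p = 9.96e-05). Gclm (0.88, SE 0.09, adjusted p = 2.49e-05) and Txnrd1 (0.65, SE 0.14, adjusted p = 0.00368) were higher with VWF under the fold threshold, and their groups did not overlap. Srxn1 was at 0.01 (95% interval −0.23 to 0.25), and at 0.31 under scaling by total counts (adjusted p = 0.0412).

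**Figure D2:**
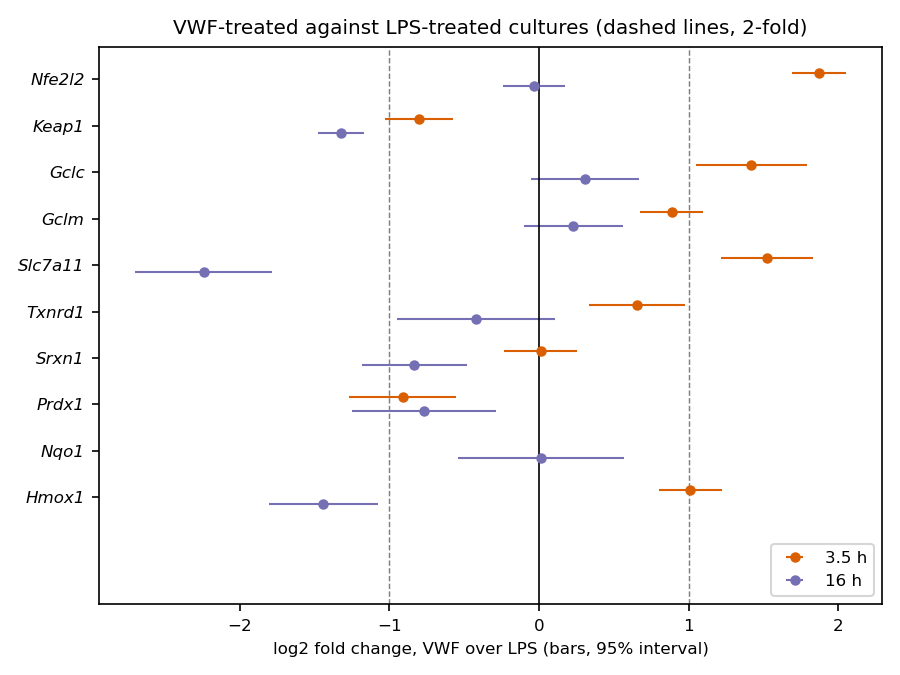
Log2 fold change of VWF-treated over LPS-treated cultures for each gene at 3.5 h (orange) and 16 h (purple), with 95% intervals; dashed lines mark 2-fold, and Nqo1 was under the expression filter at 3.5 h. Nfe2l2, Slc7a11, Gclc and Hmox1 were higher with VWF at 3.5 h, and Slc7a11, Hmox1 and Keap1 were lower with VWF at 16 h.

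By 16 h the controls themselves had changed. Of 9 genes tested between control cultures at 16 h and at 3.5 h, 1 was called higher (Prdx1) and 2 lower (Gclc and Hmox1), against 9.08% of 8333 genes (4% higher and 5.09% lower). At the adjusted p alone 3 were higher and 6 lower, against 41.1% of genes. Gclc was 49.3, 54.2, 44.2, 45.5 and 36.8 CPM at 16 h, all under the 3.5 h controls (log2 fold change −1.45, SE 0.13, adjusted p = 1.9e-05). Prdx1 rose to 7458, 6342, 6113, 6764 and 9934 CPM (log2 fold change 1.23, SE 0.17, adjusted p = 0.000347), the highest in Control 16 h replicate 5, without which the value was 1.09. Hmox1 was at 766.5, 705, 597, 616 and 487 CPM (−1.08, SE 0.13, adjusted p = 0.000146), and at −0.99 without that culture. Under the fold threshold Txnrd1 (−0.89, SE 0.21, adjusted p = 0.00618), Gclm (−0.73, SE 0.15, adjusted p = 0.00376), Srxn1 (−0.55, SE 0.14, adjusted p = 0.0102) and Nfe2l2 (−0.51, SE 0.10, adjusted p = 0.00263) were lower at 16 h and Keap1 (0.43, SE 0.08, adjusted p = 0.00243) was higher. Slc7a11 was left out by the expression filter here, at a mean of 5.85 CPM at 16 h against 12.2 CPM at 3.5 h in groups that did not overlap. Without the filter it was called lower (−1.11, SE 0.24, adjusted p = 0.00445), which made 3 genes lower. Each agonist was therefore compared with controls of its own time.

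In VWF-treated cultures at 16 h Hmox1 was the only gene called of the 9 tested, against 8.71% of 7798 genes (4.55% higher and 4.15% lower). At the adjusted p alone 2 rose and 2 fell, against 27.7% of genes. Hmox1 was at 2980, 2889, 2946, 2907 and 1734 CPM. Every VWF-treated culture was above the highest control, replicate 5 by the least, and the rise was 4.21-fold (log2 fold change 2.08, SE 0.18, adjusted p = 1.65e-05; 2.20 without that replicate). Gclm rose below the fold threshold, to 242, 242, 304, 227 and 244 CPM from 172, 171, 166, 162 and 92.1 CPM. The groups were apart, and the log2 fold change was 0.71 (SE 0.18, adjusted p = 0.0118), or 0.57 without Control 16 h replicate 5, the lowest control. It was 0.63 (adjusted p = 0.0575) with scaling by total counts.

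Gclc was still lower with VWF, at 26.8, 25.5, 32.7, 23.3 and 27.9 CPM, under all controls (log2 fold change −0.77, SE 0.13, adjusted p = 0.00113). Nfe2l2 was lower as well, at 156 ± 14.1 CPM against 204 ± 8.20 CPM (SD, n = 5 each), with a log2 fold change of −0.39 (SE 0.08, adjusted p = 0.00362). Slc7a11 was at 15.1, 14.5, 25.6, 14.3 and 13.8 CPM against 7.99, 6.39, 4.99, 6.87 and 3.00 CPM. Its groups did not overlap, but it reached at most 5.59 TPM and was left out by the expression filter. Without the filter its log2 fold change was 1.56 (SE 0.26, adjusted p = 0.00104).

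The remaining genes did not pass the test at 16 h with VWF. The log2 fold change was 0.22 for Keap1 (adjusted p = 0.0517), 0.17 for Nqo1 (95% interval −0.20 to 0.55) and 0.07 for Prdx1 (−0.26 to 0.40). Srxn1 and Txnrd1 were at −0.40 (−0.77 to −0.02, adjusted p = 0.116) and −0.33 (−0.87 to 0.21). Without Control 16 h replicate 5 all 3 of Keap1 (0.27, adjusted p = 0.00586), Srxn1 (−0.51, adjusted p = 0.00601) and Txnrd1 (−0.50, adjusted p = 0.0239) passed the adjusted p, so that 3 genes were higher and 4 lower.

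In LPS-treated cultures at 16 h, 3 of the 10 genes were called higher (Slc7a11, Hmox1 and Keap1) and 1 lower (Gclc), against 27.6% of 7994 genes (15.3% higher and 12.4% lower). At the adjusted p alone 5 were higher and 2 lower, against 53.7% of genes. The median log2 fold change of the 10 genes was 0.51, beside −0.03 over all genes. It lay between the values of Srxn1 (0.49) and Gclm (0.53), both of which were below 0 under scaling by total counts. Hmox1 was at 7069, 7833, 7374 and 7010 CPM, far above the highest control of 766.5 CPM. The rise was 11.8-fold (log2 fold change 3.57, SE 0.15, adjusted p = 8.72e-08). Slc7a11 was at 88.6, 76.9, 87.3 and 63.0 CPM, above all controls (log2 fold change 3.79, SE 0.27, adjusted p = 2.4e-06). Keap1 was at 146, 152, 144 and 151 CPM against 46.6 to 57.8 CPM in controls, a 3.01-fold rise (log2 fold change 1.59, SE 0.09, adjusted p = 4.26e-07).

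Gclc was at 22.5, 23.0, 27.1 and 15.8 CPM, below the controls (log2 fold change −1.02, SE 0.17, adjusted p = 0.000618), and fell short of 2-fold without LPS 16 h replicate 4 (−0.90) or Control 16 h replicate 1 or 2, with edgeR's count-based filter filterByExpr (−0.94) and with no filter (−0.93). Nfe2l2 was slightly lower (−0.31, SE 0.08, adjusted p = 0.0113), and did not pass with filterByExpr (adjusted p = 0.0654) or no filter (adjusted p = 0.196). Prdx1 was at 9492, 12952, 10512 and 19680 CPM, with the highest value in LPS 16 h replicate 4, and overlapped the controls. Its log2 fold change was 0.89 (SE 0.25, adjusted p = 0.0129), against 0.61 without that replicate, 1.02 without Control 16 h replicate 5 and 0.32 under scaling by total counts (adjusted p = 0.15).

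Gclm, Srxn1, Txnrd1 and Nqo1 lay near or outside the threshold after LPS at 16 h. Gclm had a log2 fold change of 0.53 (95% interval 0.07 to 0.99, adjusted p = 0.0526) and Srxn1 of 0.49 (0.07 to 0.90, adjusted p = 0.0498; up to 0.122 with a culture left out). Txnrd1 was at 0.14 (−0.49 to 0.77) and Nqo1 at 0.21 (−0.31 to 0.73). Gclm passed the adjusted p without Control 16 h replicate 5 (0.39, adjusted p = 0.0308) or without LPS 16 h replicate 4 (0.64, adjusted p = 0.0289). All 4 values were below 0 under scaling by total counts, so no direction is read for them.

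**Figure D3:**
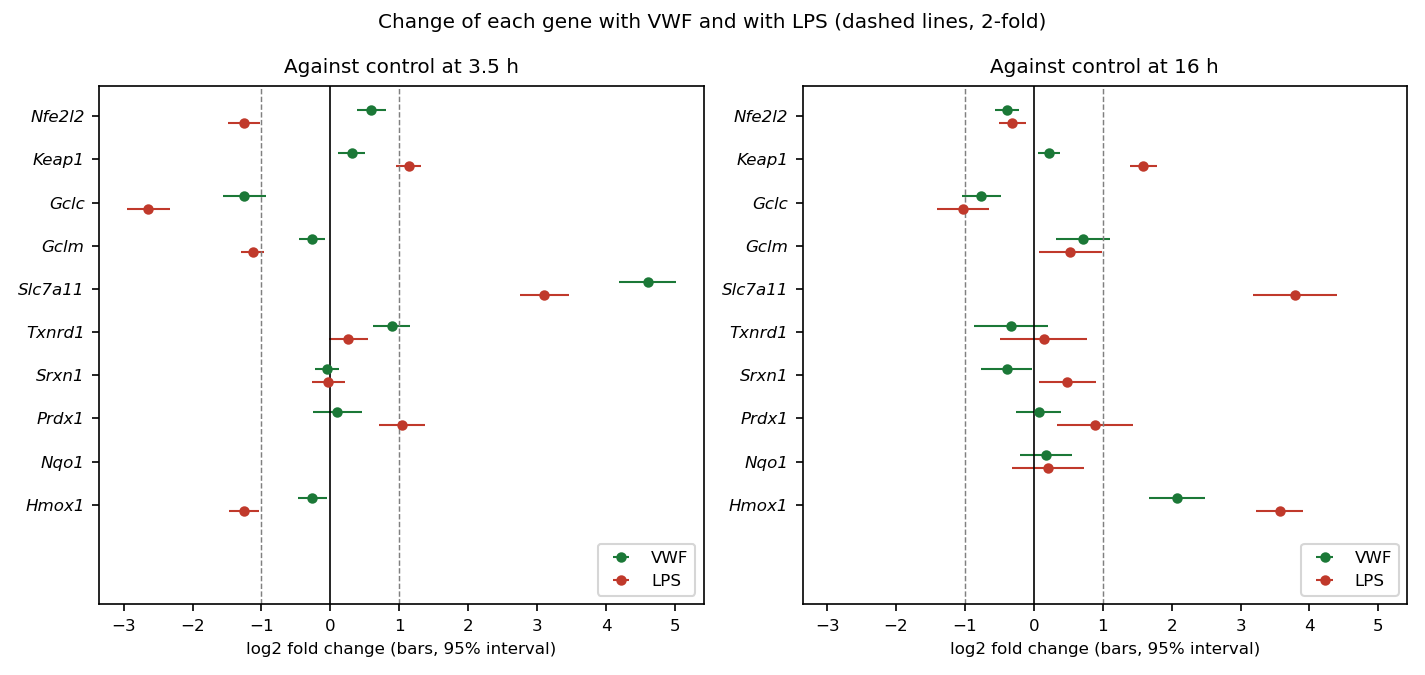
Log2 fold change against the controls of the same time for VWF (green) and LPS (red), with 95% intervals, at 3.5 h on the left and 16 h on the right; dashed lines mark 2-fold. Gclc lies left of 0 in all 4 comparisons, whereas Hmox1 lies left of 0 at 3.5 h and right of it at 16 h; Nqo1 at 3.5 h and Slc7a11 with VWF at 16 h were under the expression filter.

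When both agonists were compared at 16 h, 3 of 10 genes were called lower with VWF and none higher (none by DESeq2 or at an unadjusted p of 0.05 in edgeR either), against 14.5% of 7574 genes called lower and 11.1% called higher (25.5% in all). At the adjusted p alone 5 were lower, against 60.5% of genes. Slc7a11 was 13.8 to 25.6 CPM with VWF and 63.0 to 88.6 CPM with LPS (log2 fold change −2.24, SE 0.20, adjusted p = 9.06e-06). Hmox1 (−1.44, SE 0.16, adjusted p = 3.42e-05) and Keap1 (−1.32, SE 0.07, adjusted p = 2.11e-07) were also lower with VWF, and no values overlapped. Under scaling by total counts only Slc7a11 was called, with Hmox1 at −0.99 and Keap1 at −0.87. Nfe2l2, which differed at 3.5 h, was at −0.03 (95% interval −0.24 to 0.17), and at 0.42 under that scaling (adjusted p = 0.00993). Srxn1 (−0.83, SE 0.16, adjusted p = 0.00112) and Prdx1 (−0.77, SE 0.21, adjusted p = 0.0108) were lower with VWF under the fold threshold, but not under scaling by total counts (adjusted p = 0.0982 and 0.161). Nqo1 was at 0.02 (95% interval −0.54 to 0.57). Gclm, Gclc and Txnrd1 did not pass, at 0.23, 0.31 and −0.42. Under scaling by total counts Gclm (0.68, adjusted p = 0.00795) and Gclc (0.75, adjusted p = 0.0075) passed the adjusted p, so that with Nfe2l2 3 genes were higher with VWF. Txnrd1 passed the adjusted p without LPS 16 h replicate 4 (−0.61, adjusted p = 0.0155), which made 6 genes lower. Same-numbered cultures of these groups deviated together (correlations of 0.16 to 0.78 over 4 pairs), and with the replicate number as a block Gclm, Gclc and Txnrd1 passed the adjusted p, at 0.25, 0.31 and −0.45 (adjusted p = 0.0236, 0.0158 and 0.00189).

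The change of each agonist's effect between the times was tested as an interaction. For VWF, 2 of 10 genes shifted upward past 2-fold (Hmox1 and Gclm) and 2 downward (Slc7a11 and Txnrd1), against 13.5% of 8660 genes (5.69% upward and 7.77% downward). Without the fold threshold 6 shifted, against 32.6% of genes. The VWF effect on Slc7a11 was smaller at 16 h by 3.07 on the log2 scale (interaction −3.07, SE 0.33, adjusted p = 3.98e-07). That on Hmox1 was 2.37 higher (SE 0.20, adjusted p = 2.24e-08). The Txnrd1 interaction was −1.18 (SE 0.27, adjusted p = 0.00207) and that of Gclm 1.02 (SE 0.19, adjusted p = 0.00031), which fell short of 2-fold in DESeq2 (0.98), with its size factors (0.98), in a single fit of all groups (0.998) and without Control 3.5 h replicate 5, VWF 3.5 h replicate 3, VWF 16 h replicate 3 or Control 16 h replicate 5 (lowest value 0.86, without the last). For Nfe2l2 the interaction was −0.95 (SE 0.12, adjusted p = 4.44e-06). That of Gclc was 0.52 (SE 0.19, adjusted p = 0.044) and did not pass without Control 16 h replicate 5 (0.43, adjusted p = 0.0787), under scaling by total counts (adjusted p = 0.0542) or in other settings (up to 0.117 with a culture left out). Srxn1 was at −0.31 (adjusted p = 0.21) and passed without Control 16 h replicate 5 (−0.45, adjusted p = 0.0159). Keap1 was at −0.06 (95% interval −0.30 to 0.19), Prdx1 at −0.01 (−0.49 to 0.47) and Nqo1 at 0.31 (−0.14 to 0.77).

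For LPS, 3 of 10 genes shifted upward past 2-fold (Hmox1, Gclm and Gclc) and none downward (none by DESeq2 or at an unadjusted p of 0.05 in edgeR either, where 7 were upward), against 13.5% of 8748 genes called upward and 12.8% downward (26.3% in all). Without the fold threshold 6 shifted upward, against 48.8% of genes. The LPS effect on Hmox1 rose by 4.83 on the log2 scale (SE 0.17, adjusted p = 6.3e-12). Those on Gclm and Gclc rose by 1.67 (SE 0.22, adjusted p = 7.86e-06) and 1.64 (SE 0.22, adjusted p = 1.21e-05), so that for Gclc a weaker decrease was measured at 16 h. Mean Gclc was 19.8 CPM at 3.5 h and 22.1 CPM at 16 h with LPS, and 126 and 46.0 CPM in controls. Nfe2l2 had an interaction of 0.96 (SE 0.14, adjusted p = 2.35e-05), of the opposite sign to that with VWF. The interaction for Slc7a11 with LPS was 0.70 (95% interval 0.04 to 1.36, adjusted p = 0.0727; 0.79, adjusted p = 0.0475, without LPS 16 h replicate 4). Keap1 was at 0.47 (SE 0.11, adjusted p = 0.00228). Srxn1 was at 0.54 (SE 0.21, adjusted p = 0.047), and did not pass under scaling by total counts (adjusted p = 0.162), with either other filter or with some cultures left out (up to 0.0951). Txnrd1 was at −0.10 (95% interval −0.77 to 0.57), Prdx1 at −0.15 (−0.77 to 0.48) and Nqo1 at 0.24 (−0.46 to 0.94).

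**Figure D4:**
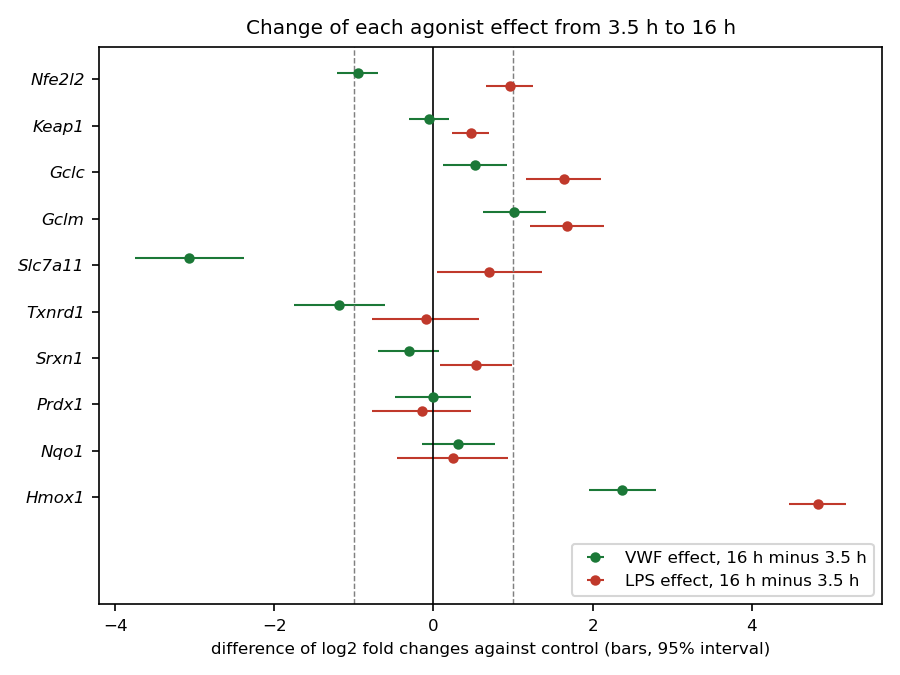
Difference of the log2 fold change against control, 16 h minus 3.5 h, for VWF (green) and LPS (red) with 95% intervals; dashed lines mark 2-fold. Slc7a11 lies at −3.07 for VWF and 0.70 for LPS, and Hmox1 lies right of 0 for both.

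Nqo1, a quinone reductase widely used as a readout of NRF2, had a low level in this table. Its group means lay between 3.53 and 5.93 CPM, its counts between 77 and 521 per culture, and it passed the expression filter in no comparison within the 3.5 h cultures. Without the filter its log2 fold change at 3.5 h was −0.06 for VWF (SE 0.17) and 0.02 for LPS (SE 0.23) against control and −0.12 for VWF against LPS (SE 0.23). The only test it passed was between controls, where it was 1.36-fold higher at 16 h (log2 fold change 0.44, SE 0.14, adjusted p = 0.0291; 0.0755 under scaling by total counts and up to 0.0757 with a culture left out).

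Across the 28 cultures the 10 genes did not form a single pattern. The highest Pearson correlations of log2 CPM were 0.80 between Txnrd1 and Srxn1, 0.79 between Keap1 and Prdx1 and 0.72 between Nfe2l2 and Gclc. The lowest were −0.79, between Gclc and Prdx1 and between Gclc and Keap1. Nfe2l2 stood at −0.16 with Hmox1 and 0.245 with Slc7a11. These coefficients are a description: the 28 cultures fall into 6 groups, and both genes of a pair are read from the same libraries.

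**Figure D5:**
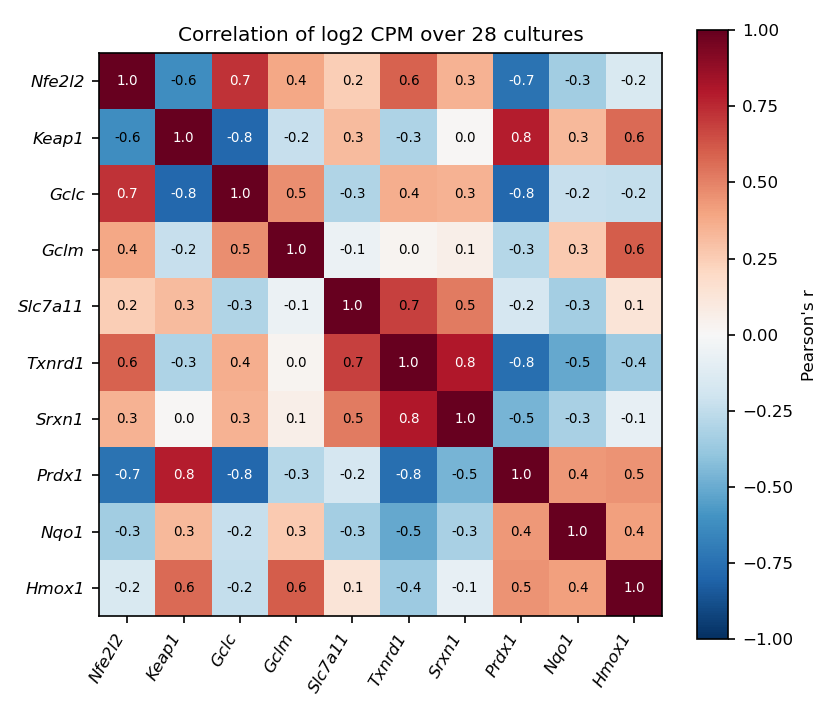
Pearson correlation of log2 CPM between each pair of genes over 28 cultures, from −1 (blue) to 1 (red). Gclc and Prdx1 lie at −0.79, and Txnrd1 and Srxn1 at 0.80.

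The genes most alike to each member were taken from 8867 genes by the same correlation over 28 cultures. For Slc7a11 they were Tnip1 (0.985), Birc3 (0.977) and Shisa3 (0.97), of which Tnip1 and Birc3 encode regulators of NF-κB and TNF signalling. For Hmox1 they were Cd300lf (0.95), A530064D06Rik (0.95) and Prex1 (0.93). For Nfe2l2 they were Foxn2 (0.93), Runx1 (0.92) and Plekha1 (0.92), and for Keap1 they were Cab39l (0.98), Parp11 (0.98) and Cnp (0.97). Gclc was nearest C77080 (0.96), Gclm nearest Vav2 (0.92) and Txnrd1 nearest Ppp1cb (0.98). Nqo1 had the weakest neighbours, with Copg2 at 0.80.

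Other genes of the pathway were counted by list, beside shares called over all genes of 14.7% with VWF and 24.5% with LPS at 3.5 h and of 8.71% and 27.6% at 16 h. No list count was tested against these shares. Among 16 partners, repressors and turnover factors of NRF2, 12 were tested in each comparison with control. After VWF at 3.5 h 2 were called higher and 1 lower, with a median log2 fold change of 0.13 against −0.01 over all genes. Sqstm1, the gene of the autophagy receptor p62, which binds KEAP1, rose 3.20-fold (log2 fold change 1.68, SE 0.08), Nfe2l1 rose (1.17, SE 0.10) and the nuclear receptor gene Rxra fell (−1.10, SE 0.10). After LPS at 3.5 h 3 were higher and 2 lower (median 0.39), with Mafk, a small MAF partner, at 2.17 (SE 0.13) and Bach1, a repressor at antioxidant response elements, at 1.95 (SE 0.12), while Rxra was at −2.19 (SE 0.10). At 16 h none was called with VWF by edgeR, though 1 higher and 3 lower passed the adjusted p alone, against 27.7% of all genes. With LPS at 16 h 3 were called higher, Sqstm1 (1.70), Maff (1.33) and Mafk (1.28).

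In the list of glutathione synthesis and use, none of 14 genes tested after VWF and none of 13 after LPS was called at 3.5 h. At the adjusted p alone 3 and 9 were higher and none lower, against 43.6% and 65.7% of all genes (4 and 10 were higher at an unadjusted p of 0.05 in edgeR). At 16 h with VWF, 1 of 15 was higher and 2 lower: Glrx, the gene of glutaredoxin, rose 6.61-fold (log2 fold change 2.72, SE 0.18), and Gpx3 and Mgst3 fell (−1.48 and −1.42). With LPS 3 of 15 were higher and 1 lower, with Glrx at 3.65 (SE 0.15), Mgst3 at −2.03 (SE 0.41) and Gstt1 at 4.78 (SE 0.70) from a control mean of 0.419 CPM.

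Among 13 thioredoxin system and peroxiredoxin genes, Prdx5 rose in all 4 comparisons with control, by log2 fold changes of 1.70 and 1.92 at 3.5 h and 2.34 and 3.19 at 16 h for VWF and LPS. Sesn1, a stress-induced sestrin, fell at 3.5 h with both agonists (−2.16, SE 0.10, with VWF and −4.39, SE 0.18, with LPS) and with LPS at 16 h (−3.36, SE 0.30). The thioredoxin gene Txn1 rose with LPS at both times (1.69, SE 0.23, and 1.67, SE 0.43), with overlapping groups at 16 h, and Prdx6 rose 2.29-fold with VWF at 16 h. The calls numbered 1 higher and 1 lower of 12 with VWF and 2 and 2 of 12 with LPS at 3.5 h, then 2 and 0 of 11 and 3 and 2 of 11 at 16 h, beside 14.7%, 24.5%, 8.71% and 27.6% of all genes.

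Of the heme and iron genes at 16 h, 2 of 7 were called higher and 1 lower with each agonist. Fth1, of ferritin heavy chain, rose 2.63-fold with VWF and 3.42-fold with LPS, and Slc40a1, of the iron exporter ferroportin, fell (log2 fold change −2.22, SE 0.39, and −1.52, SE 0.20). The other higher genes were Slc48a1, a heme transporter gene, with VWF (1.10, SE 0.08) and Hmox2 with LPS (1.47, SE 0.21). At 3.5 h, of 8 tested, Slc40a1 was lower with VWF (−1.13, SE 0.14), and none was called with LPS. There 2 were higher and 4 lower at the adjusted p alone, against 65.7% of all genes. Of the NADPH genes, Idh1 was called lower with LPS at 16 h (−1.46, SE 0.26) and none in the other comparisons with control. In those, edgeR gave at most 1 at an unadjusted p of 0.05, and the 1 with VWF at 16 h, which was higher, also passed the adjusted p. With scaling by total counts the calls with LPS at 16 h numbered 8 rather than 4 in the glutathione list and 3 rather than 1 in the NADPH list, and heme and iron calls at 3.5 h numbered 2 with each agonist.

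In the list of other enzymes and transporters with reported NRF2 control, Procr, of the endothelial protein C receptor, was higher in all 4 comparisons (log2 fold change 2.37 and 2.19 at 3.5 h, 1.65 and 4.39 at 16 h, for VWF and LPS). Osgin1, an oxidative stress-induced growth inhibitor gene, fell at 3.5 h (−1.98, SE 0.10, and −3.85, SE 0.20), and the epoxide hydrolase gene Ephx1 fell at 16 h (−3.47, SE 0.27, and −3.35, SE 0.30). Abcc4 rose at 3.5 h with VWF (1.00, SE 0.21), Gsta3 at 16 h with VWF (2.78, SE 0.26) and Esd at 16 h with LPS (1.58, SE 0.12). The list gave 2 higher and 1 lower of 16 with VWF and 1 and 1 of 15 with LPS at 3.5 h, and 2 and 1 of 17 and 2 and 1 of 15 at 16 h (7 calls rather than 3 with LPS at 16 h under scaling by total counts). All adjusted p values of the list genes named as called were at most 0.00944 in the same edgeR test.

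In the genome build GRCm38, Nfe2l2 (ENSMUSG00000015839) spans chr2:75675513-75704641, Keap1 (ENSMUSG00000003308) chr9:21229730-21239361, Slc7a11 (ENSMUSG00000027737) chr3:49892526-50443614 and Hmox1 (ENSMUSG00000005413) chr8:75093621-75100589. Gclc (ENSMUSG00000032350) spans chr9:77754535-77794485, Gclm (ENSMUSG00000028124) chr3:122245557-122270732, Txnrd1 (ENSMUSG00000020250) chr10:82833951-82897712, Srxn1 (ENSMUSG00000032802) chr2:152105516-152111376, Prdx1 (ENSMUSG00000028691) chr4:116685544-116700822 and Nqo1 (ENSMUSG00000003849) chr8:107388225-107403206. Values cover all exons of each gene, so isoforms were not separated.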

How the data were processed

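RNA from 28 BMDM cultures was sequenced, and the authors deposited a table of read counts per gene, raw and not normalized, in which every column was matched to a culture by name (0 were left unmapped). Per the submitters' processing notes and the methods, reads were aligned to GRCm38 with STAR, and the study tested with DESeq2; how counting treated strand and multimapped reads is not given in the sources used here. Totals ranged from 41131209 to 77699206 counts (median 52986574), and 0 of 52 pairs of cultures within a group agreed within sampling noise.

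Genes reaching 10 TPM in at least 1 culture of a comparison were tested with edgeR 4.0.16 (R 4.3.3; TMM factors, quasi-likelihood test, Benjamini-Hochberg adjustment over all genes tested), using the groups compared, or controls and agonist at both times for the interaction. TPM came from union exon lengths (GENCODE M21) and served the filter and levels between genes. A call needed an adjusted p under 0.05 and a 2-fold change. On simulated data with 200 genes changed 4-fold, 96.5% were called for VWF against control at 3.5 h (7712 genes) and 85% for the LPS interaction (7582 genes). Alternatives were DESeq2 1.42.0, its size factors, library size alone, 2 other filters, a single fit of all groups, a block for the replicate number and leaving out each culture.

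The 10 genes and the lists were chosen with earlier results of these data known. All 10 are named in every comparison, as are up to 3 called genes of each list with the largest change against control and the 3 genes most correlated with each of the 10, of which the text gives some. Every correlation of same-numbered deviations exceeded 0.1 only between VWF and LPS at 16 h. In the other pairs of groups examined the lowest was −0.67 to −0.15 and the highest 0.45 to 0.68. In every group the summed other-cell markers were higher in replicate 1 (43.8 to 142 TPM) than in replicate 3 (14.9 to 28.7 TPM). Whether same-numbered cultures shared a preparation was not tested, and the main tests did not use the replicate number. Promoter windows were RefSeq's (GRCm38.p6).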

Additional observations from a re-analysis of the deposited data

Results flagged for a closer look

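Among 60 sets of 4 or 5 cultures (10 genes in 6 groups), 8 held a culture far from the others of its group, and chance alone flags about 5 percent of such sets. Control 16 h replicate 5 was low for Gclm (92.1 CPM) and Txnrd1 (118 CPM). VWF 16 h replicate 3 was high for Gclm (304 CPM) and Slc7a11 (25.6 CPM). VWF 16 h replicate 5 was low for Hmox1 (1734 CPM), LPS 16 h replicate 4 was low for Srxn1 (221 CPM), Control 3.5 h replicate 1 was low for Srxn1 (283.9 CPM) and LPS 3.5 h replicate 3 was high for Nfe2l2 (133 CPM). Control 16 h replicate 5 and LPS 16 h replicate 4 also stood apart in ribosomal protein and macrophage marker counts, and the part of this in the gene values was not tested.

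The effect of VWF differed between 16 h and 3.5 h, by the interaction test in edgeR's quasi-likelihood fit with Benjamini-Hochberg adjustment, for 6 genes. On the log2 scale the differences were −0.95 for Nfe2l2, 1.02 for Gclm, 0.52 for Gclc (adjusted p = 0.044; 0.0787 without Control 16 h replicate 5 and up to 0.117 with another culture left out), −3.07 for Slc7a11, −1.18 for Txnrd1 and 2.37 for Hmox1. The effect of LPS differed for 6 genes, by 0.96 for Nfe2l2, 0.47 for Keap1 (adjusted p = 0.00228), 1.67 for Gclm, 1.64 for Gclc, 0.54 for Srxn1 (adjusted p = 0.047; up to 0.0951 with a culture left out) and 4.83 for Hmox1.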

How the results depend on the processing

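Without the fold threshold 7 genes rather than 2 passed for VWF at 3.5 h, 4 rather than 1 for VWF and 7 rather than 4 for LPS at 16 h, 8 rather than 4 and 5 rather than 3 for VWF against LPS at 3.5 h and 16 h, 9 rather than 3 between controls, and 6 rather than 3 for the LPS interaction. With filterByExpr or no filter 2 genes rather than 1 were called for VWF at 16 h, since Slc7a11 was then tested, 3 rather than 2 were lower between controls for the same reason, and Gclc was no longer called for LPS at 16 h (−0.94 and −0.93). Under scaling by total counts 1 rather than 3 was called for VWF against LPS at 16 h. With a culture left out, the calls numbered 2 to 2 (VWF) and 6 to 7 (LPS) at 3.5 h, 1 to 1 and 3 to 5 at 16 h, 3 to 4 and 3 to 3 for VWF against LPS, 2 to 3 between controls, and 3 to 5 and 3 to 4 for the VWF and LPS interactions. Calls near 2-fold hinged on single cultures: Prdx1 with LPS at 3.5 h (0.97 to 1.11), Gclc with LPS at 16 h (−1.14 to −0.90), Hmox1 in VWF against LPS at 3.5 h (0.97 to 1.05) and between controls (−1.15 to −0.99), and the VWF interaction of Gclm (0.86 to 1.06), which also missed 2-fold in DESeq2 (0.98), with its size factors (0.98) and in one fit of all groups (0.998).

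The sign of the log2 fold change turned for values that had not passed the test, except Srxn1 with LPS at 16 h (adjusted p = 0.0498 in edgeR); the cause was not tested. Under scaling by total counts these were Prdx1 (−0.12) for VWF and Txnrd1 (−0.28) for LPS at 3.5 h, Nqo1 (−0.36), Gclm (−0.042), Txnrd1 (−0.43) and Srxn1 (−0.084) for LPS at 16 h, Nfe2l2 (0.42) and Txnrd1 (0.027) for VWF against LPS at 16 h, and the VWF interactions of Keap1 (0.076) and Prdx1 (0.14). Srxn1 turned with filterByExpr (0.0087 for VWF, 0.039 for LPS and −0.047 for VWF against LPS at 3.5 h) and with no filter (0.0024, 0.0020 and −0.035), and in the last comparison with DESeq2 (−0.0057), its size factors (−0.0057) and all groups in one fit (−7.66e-05). Nqo1 for VWF against LPS at 16 h was −0.0066 with filterByExpr. With the replicate block Txnrd1 for LPS at 16 h was −0.075, and for VWF against LPS Srxn1 at 3.5 h was −0.017 and Nqo1 at 16 h −0.052; the block changed no call of the 10 genes, though the VWF interaction of Gclc then had an adjusted p of 0.0741. With a culture left out, values crossed 0 for Srxn1 (LPS −0.14 to 0.025 and VWF against LPS −0.048 to 0.12, at 3.5 h), for Nqo1 (−0.043 to 0.32) and Txnrd1 (−0.032 to 0.32) with LPS at 16 h, for Nfe2l2 (−0.073 to 0.011) and Nqo1 (−0.10 to 0.27) in VWF against LPS at 16 h, for the VWF interactions of Keap1 (−0.10 to 0.0048) and Prdx1 (−0.11 to 0.11), and for the LPS interactions of Nqo1 (−0.0059 to 0.43) and Txnrd1 (−0.27 to 0.076). Nqo1 had 77 to 521 counts per culture, and how much of its spread is counting error was not tested.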
